A study of Mus musculus with 36 samples.

Results

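The Cd1d locus, Kirrel, Colec12 and Maf were examined for trimethylation of histone H3 at lysine 27 (K27me3) and lysine 4 (K4me3) in mouse pancreas. The 5 genes were Cd1d1, Cd1d2, Kirrel, Colec12 and Maf, taken by name out of 21939 genes. The study's main text and legends name all but Kirrel at its K27me3 result. These 21939 are the protein-coding genes of GENCODE vM21 on mm10, plus Cd1d2, which that annotation holds as a polymorphic pseudogene. ChIP-Seq recovers DNA bound to a modified histone, and a peak is a stretch where the antibody sample exceeds its background. Chromatin came from whole pancreata of 2- to 4-month-old mice, 22 days after tamoxifen gavage, and the values below are from 3 mice in each of 2 genotypes with 1 peak list per mark and mouse. Control mice are labelled wildtype, and the study uses the word control both for C57BL/6 mice and for mice with the Mist1creERT allele alone. Ezh2ΔSET mice carried Mist1creERT/+ and, by the study's description, were homozygous for an Ezh2 allele whose SET domain is removed by Cre. All mice are labelled as given tamoxifen. The Mist1 driver acts in acinar cells, so recombination was confined to them by design while the chromatin came from every cell of the organ. Fewer cells of a type and fewer marked alleles per cell cannot be told apart in such tissue.

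EZH2 is the catalytic subunit of Polycomb repressive complex 2, which deposits K27me3, a mark of repressed genes that often spreads over broad domains. K4me3 forms short peaks at the start sites of active or primed genes. Cd1d1 and its neighbour Cd1d2 belong to the CD1d family, MHC class I-like molecules that present lipid antigens to natural killer T cells. Kirrel encodes a nephrin-like cell adhesion protein of the immunoglobulin superfamily, known from the slit diaphragm of the kidney. Colec12 encodes a membrane-bound scavenger receptor with a collectin domain, and Maf (c-Maf) is a basic leucine zipper transcription factor with roles in lymphocytes and macrophages.

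Stretches of 2 K27me3 elements are printed, one that every mouse carried and one that differed in number between the genotypes, and the Kirrel promoter because the marks met near it in some mice. The first (chr3:87041116-87041415) is the middle of the longest run between Cd1d1 and Kirrel, 4654 bases, that K27me3 peaks covered in 6 of 6 mice. The second is the middle of the region shared by 4 mice upstream of Maf (chr8:115712433-115712732). The third is the 250 bases before the Kirrel start (chr3:87174748-87174997). All are read 5′ to 3′ on the minus strand of GRCm38.p6 and lie outside the bodies of the 5 genes, with each CG dinucleotide in capitals.
Cd1d1 to Kirrel K27me3: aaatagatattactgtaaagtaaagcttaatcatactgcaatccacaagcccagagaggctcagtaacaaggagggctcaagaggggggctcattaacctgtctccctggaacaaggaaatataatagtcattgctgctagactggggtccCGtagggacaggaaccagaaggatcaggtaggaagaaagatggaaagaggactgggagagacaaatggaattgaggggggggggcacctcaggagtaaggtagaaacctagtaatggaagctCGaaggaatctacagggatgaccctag
Maf upstream K27me3: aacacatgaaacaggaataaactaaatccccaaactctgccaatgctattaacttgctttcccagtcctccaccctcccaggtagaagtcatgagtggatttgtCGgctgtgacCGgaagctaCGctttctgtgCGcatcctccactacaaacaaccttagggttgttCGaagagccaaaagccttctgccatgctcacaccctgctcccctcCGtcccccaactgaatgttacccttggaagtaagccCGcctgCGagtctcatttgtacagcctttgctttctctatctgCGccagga
Kirrel promoter: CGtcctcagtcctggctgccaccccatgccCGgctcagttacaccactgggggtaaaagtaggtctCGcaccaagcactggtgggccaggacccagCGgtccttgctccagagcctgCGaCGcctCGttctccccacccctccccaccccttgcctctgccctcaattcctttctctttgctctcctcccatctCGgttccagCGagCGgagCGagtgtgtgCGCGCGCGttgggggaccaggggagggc
The stretch between Cd1d1 and Kirrel held 2 CG in 300 bases at 47.7% G and C, and the Maf stretch 9 CG in 300 bases at 50.7%. The Kirrel promoter held 15 CG in 250 bases at 65.6%. Of the 32851 mouse promoters in the RefSeq table for this build, 92.1% hold a CG in the 250 bases before the start, with a median of 6, and 72.7% hold fewer than 15. Over 500 bases on either side of the outermost start, the observed-over-expected CG ratio was 0.493 at Cd1d1, 0.382 at Cd1d2, 0.660 at Kirrel, 0.771 at Maf and 0.895 at Colec12. The CD1d genes thus had the lowest CG content of the 5 at their starts.

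The members lie at 3 places in mm10. Cd1d1 (ENSMUSG00000028076.12) is at chr3:86995834-86999441 on the minus strand and Cd1d2 (ENSMUSG00000041750.13) at chr3:86986551-86989780 on the plus strand. The start sites of these neighbours are 12.9 kb apart. Kirrel (ENSMUSG00000041734.15) is at chr3:87078593-87174747 on the minus strand, upstream of Cd1d1. Colec12 (ENSMUSG00000036103.9) is at chr18:9707595-9882644 on the plus strand, and Maf (ENSMUSG00000055435.6) at chr8:115682942-115707794 on the minus strand. Over 2888 aligned bases, Cd1d1 and Cd1d2 were 96.1% identical, and 30.9% of the 50-base words of Cd1d2 also occurred in Cd1d1. Peaks inside either gene body are therefore uncertain as to which copy the reads came from, while the K27me3 peaks described here lay outside both bodies.

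The 6 K27me3 lists held 21420 to 31274 peaks and the 6 K4me3 lists 17400 to 25886, with no height or read count, so the depth is unknown. Each group of 3 mice is small, and spread between mice is the only error available. Both low ends belonged to control replicate 2, without which the ranges were 28803 to 31274 and 24209 to 25886, while in the wide window used below its K27me3 peaks touched 12016 genes against 6175 to 7858 in the other mice. The K27me3 list of Ezh2ΔSET replicate 2 held 17 peaks on chromosome X, where the lists of the remaining 5 mice held 5637 to 7367. Its K27me3 peaks covered 226 Mb of the autosomes, and those of the remaining mice 149 to 182 Mb. In control replicate 2, 11.7% of the autosomal K27me3 peaks also touched a K4me3 peak, against 0.693% to 1.97% in the other mice. Of 4 lymphocyte markers (Cd3e, Cd4, Cd8a and Cd79a), K4me3 was called at 2 in control replicate 2 and at 0 in the other 5 mice. Control replicate 2 alone also had K4me3 at Pecam1 (endothelium) and Acta2 (stroma), and it alone lacked K4me3 at Cftr (duct) and Nkx6-1 (islet). Of 4 stroma markers (Col1a1, Pdgfra, Pdgfrb and Acta2), 3 were called in that mouse, Pdgfrb not among them, and 2 to 3 in the other mice. K4me3 was called at 8 of 8 acinar markers in every mouse and at 2 of 6 macrophage markers (Cd68 and Cd14). The Ezh2 start carried K4me3 in 6 of 6 mice, but it lies outside the deleted exons and does not check the deletion.

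Across the locus of Cd1d1, Cd1d2 and Kirrel, K27me3 formed domains that every mouse shared and smaller peaks that few mice had. Bounds given here are the outermost edges over mice, and no mouse needs to fill them. Domains with a peak in 6 of 6 mice lay 36.4 to 67.6 kb upstream of the Cd1d1 start, between this gene and Kirrel, and 42.1 to 65.0 kb upstream of Cd1d2, next to Dclk2. Every mouse also had K27me3 49.2 to 74.0 kb upstream of Kirrel and next to its start, between 15.9 kb upstream and 8.32 kb inside the gene. In this last region K27me3 came within 3 kb of a Kirrel start in 3 of 6 mice (control replicates 2 and 3 and Ezh2ΔSET replicate 1). It ended upstream of the start in the other 3. In control replicate 2 the peaks joined into one domain across the start. Control replicate 3 and Ezh2ΔSET replicate 1 instead had a separate peak over the start, 5.0 and 6.25 kb wide, apart from the upstream peak. A further domain 75.4 to 90.9 kb upstream of Kirrel was present in 5 mice, all but control replicate 3. Its bounds hold the whole Fcrls gene, so part of the K27me3 in the Kirrel window lies at another gene. A K27me3 peak next to the Cd1d1 start was found in Ezh2ΔSET replicate 2 alone. It was 6.26 kb wide and its near edge lay 2.03 kb upstream of the start. The same mouse was the one with few K27me3 peaks on chromosome X, and the part of that feature in this peak was not tested. Control replicate 3 alone had a peak 16.6 to 21.6 kb upstream of Cd1d1.

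**Figure D1:**
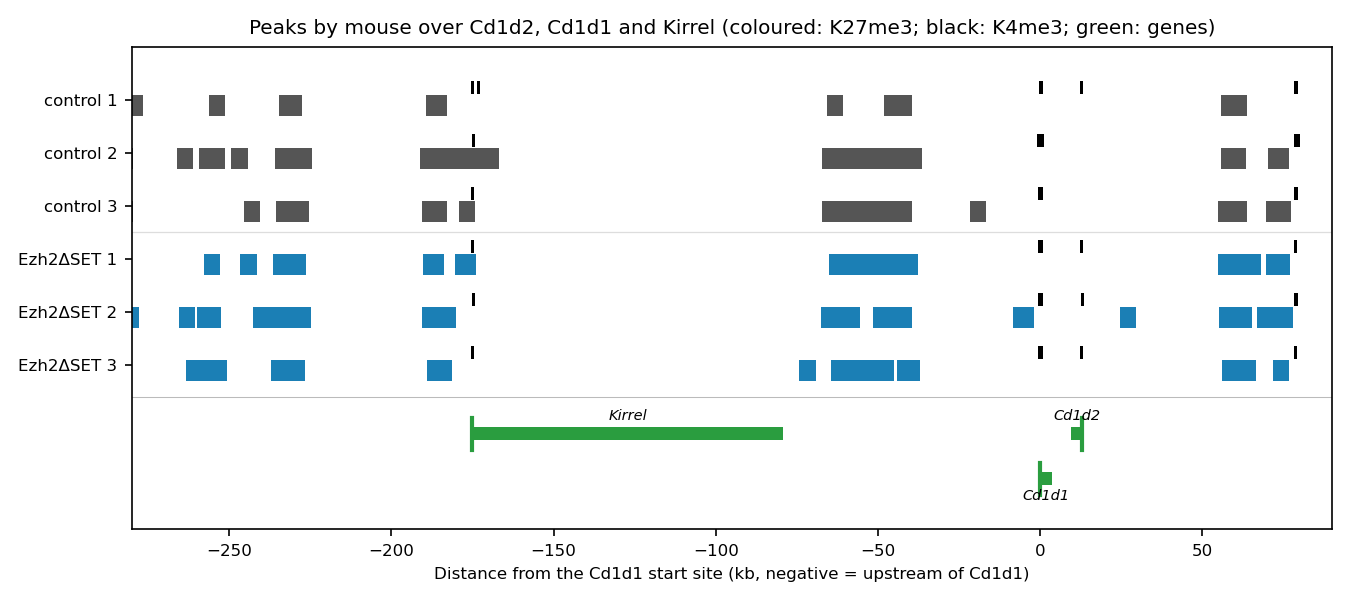
Peaks of each mouse along the chromosome, as distance in kb from the Cd1d1 start site (negative is upstream of Cd1d1); coloured bars are K27me3 peaks, black bars K4me3 peaks and green bars genes with a line at the start. The domains 36.4 to 67.6 kb upstream of Cd1d1, next to Dclk2 and upstream of Kirrel occur in all 6 mice, while K27me3 reaches the Kirrel start in 3 and lies next to the Cd1d1 start in 1.

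Inside the gene bodies of Cd1d1 and Cd1d2 no mouse had a K27me3 peak. K4me3 covered the Cd1d1 start in 6 of 6 mice, with 1.37 to 1.94 kb of peak within 3 kb of a start. In Ezh2ΔSET replicate 2, the marks next to Cd1d1 did not share bases, and the gap between them was 1291 bp. At Cd1d2, K4me3 was called in control replicate 1 and in all 3 Ezh2ΔSET mice and covered at most 0.754 kb.

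At Colec12, a K27me3 peak at the start was present in 5 of 6 mice, missing from control replicate 2. In these 5 mice the peak lay over the start or within 0.328 kb of it, in a region from 2.87 kb upstream to 7.21 kb downstream. Within 3 kb of a start it covered 2.73, 0 and 5.93 kb in control and 3.82, 3.79 and 3.83 kb in Ezh2ΔSET mice. The Ezh2ΔSET values were nearly equal and the control range spanned them. Farther upstream, 59.2 to 72.4 kb from the start, another element was shared by control replicate 3 and all 3 Ezh2ΔSET mice. A broader one 87.7 to 102 kb upstream was found in control replicates 1 and 3 and in Ezh2ΔSET replicates 2 and 3. The bounds of this broader element hold the whole of a neighbouring gene, Cetn1. An element 36.8 to 45.3 kb upstream was called in Ezh2ΔSET replicates 1 and 2 and in no control mouse. Within the gene, 63.1 to 69.1 kb from the outermost start, a peak was found in control replicate 3 and Ezh2ΔSET replicates 2 and 3. Control replicate 2 had no K27me3 peak in the whole Colec12 window.

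At Maf, K27me3 lay on both sides of the K4me3 peak at the start. The upstream element was present in 4 mice (control replicate 2 and all 3 Ezh2ΔSET), with near edges 1.40 to 2.29 kb from the start. An element at the 3′ part of the gene, 14.6 to 28.8 kb from the start, was also found in 4 mice, with control replicate 3 in place of control replicate 2. Control replicate 1 had neither element. Control replicate 2 alone had a peak 1.90 to 8.24 kb inside the gene, which lay over part of its K4me3.

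**Figure D2:**
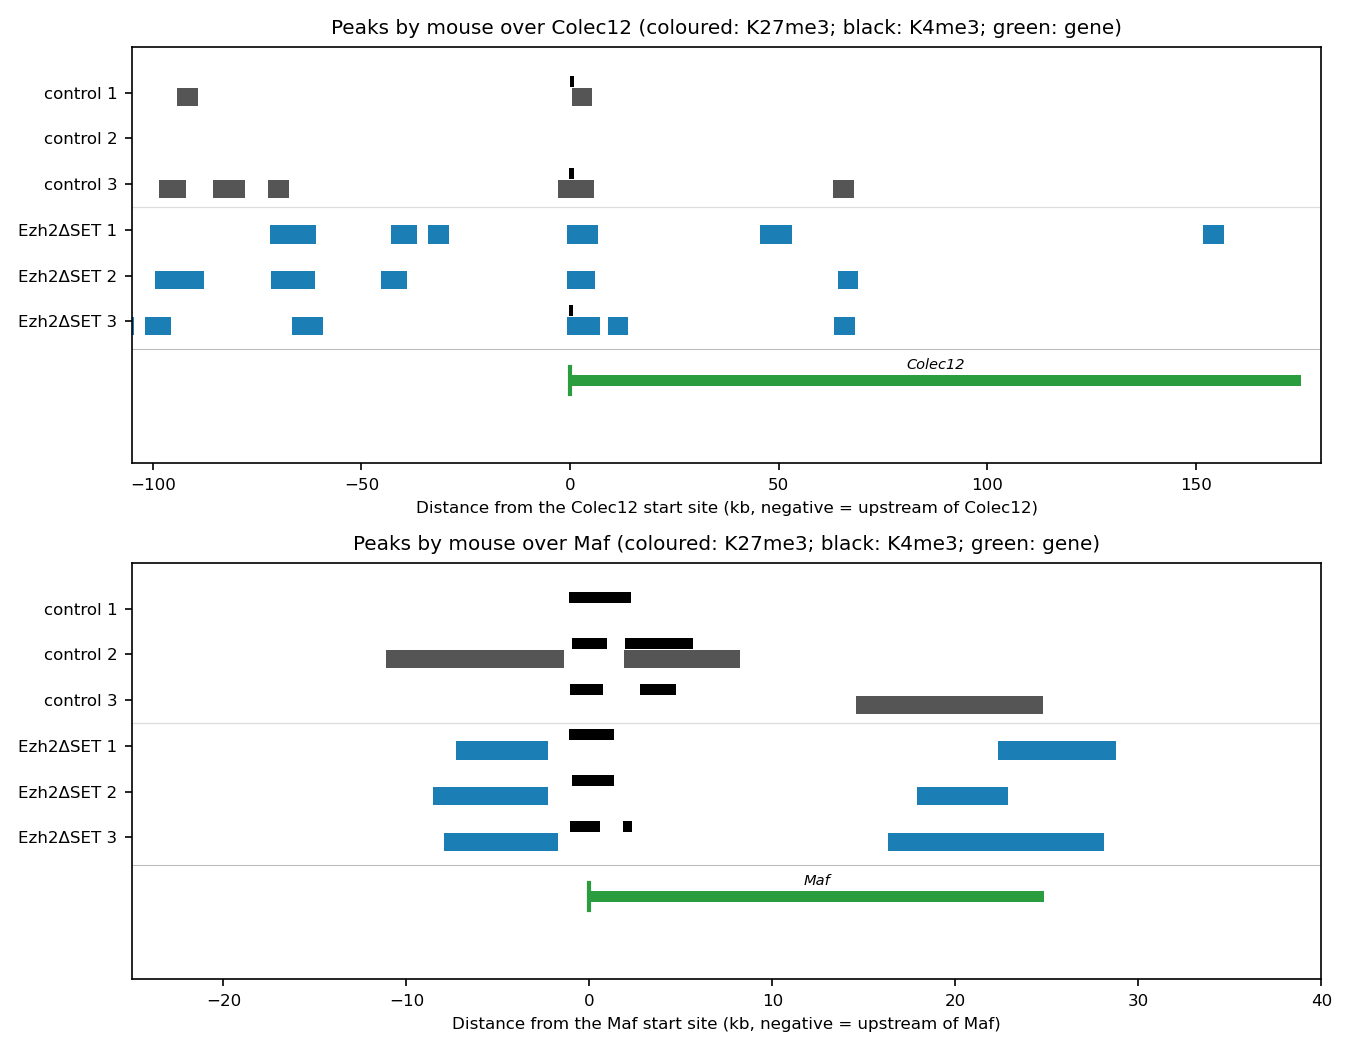
Peaks of each mouse at Colec12 (upper) and Maf (lower), as distance in kb from the start site of each gene (negative is upstream); coloured bars are K27me3 peaks, black bars K4me3 peaks and green bars genes. K27me3 lies at the Colec12 start in 5 mice and just upstream of the Maf K4me3 peak in 4, all 3 Ezh2ΔSET mice among them.

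A gene counted as called for K27me3 when a peak touched its wide window, which reached 100 kb before and 3 kb past each start. In all 3 control mice 3 of the 5 genes were called (Cd1d1, Cd1d2 and Kirrel), against a background of 20.0% of all genes. In all 3 Ezh2ΔSET mice 5 of 5 were called (24.5% of all genes), and in all 6 mice the same 3 as in control mice (15.5%). Counting peaks only near a start, at most 3 kb away, the numbers were 0 in control mice (5.78% of all genes), 2 in Ezh2ΔSET mice (7.39%) and 0 in all 6 mice (3.61%). The calls near the start were Colec12 and Maf. Over the gene body they numbered 0 in control (7.30% of all genes) and 2 in Ezh2ΔSET mice (9.16%), and with peaks of at least 10 kb in the wide window 0 (6.40%) and 2 (9.24%). The wide window therefore called Cd1d1 in every mouse through the domain toward Kirrel, also where no K27me3 lay near the start.

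The length of K27me3 peaks in the same window gave a finer comparison of what the loss of the SET domain went with. Each gene was tested over mice by two-sided exact permutation, in which 3 mice against 3 can give no p below 0.1. After Benjamini-Hochberg adjustment over the 14224 genes with a peak, each of the 5 adjusted p values was 1. The mean was higher in Ezh2ΔSET than in control mice at 5 of 5 members, which held for 36.1% of genes with a peak. The median difference was 3.97 kb over the 5 genes and −1.68 kb over all genes with a peak. These backgrounds depended on control replicate 2. Without it the mean was higher in Ezh2ΔSET at 5 of 5 members and at 72.3% of genes with a peak, with medians of 9.36 kb over the members and 3.12 kb over all genes. No member had groups that did not overlap, where 3.65% of all genes did, in either direction. Within 3 kb of a start the mean was higher in Ezh2ΔSET at Cd1d1 and Colec12 and lower at Kirrel and Maf. It was thus higher at 2 of the 4 members with a peak there, against 36.5% of genes with a peak. Again no member had groups that did not overlap (0.852% of all genes). At Maf the lower mean rested on control replicate 2. The Maf values near a start were 0, 3.41 and 0 kb in control and 0.713, 0.738 and 1.29 kb in Ezh2ΔSET mice.

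Cd1d1 had 13.7, 30.9 and 32.7 kb of K27me3 peak in control replicates 1, 2 and 3. Values were 27.5, 30.3 and 31.5 kb in Ezh2ΔSET replicates 1, 2 and 3. The Ezh2ΔSET values lay inside the control range, which control replicate 1 widened. The means were 25.8 ± 10.5 kb in control and 29.7 ± 2.07 kb in Ezh2ΔSET mice (SD, n = 3 each), a difference of 3.97 kb (exact permutation p = 0.9). Without control replicate 1 the difference turned to −2.06 kb, and without control replicate 2 or 3 it was 6.53 or 7.44 kb. The difference of medians was −0.563 kb. With peaks of at least 10 kb alone it was −10.3 kb (exact permutation p = 0.5).

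Cd1d2 had 8.02, 13.9 and 16.3 kb in control mice. Ezh2ΔSET mice had 20.9, 28.2 and 15.6 kb. The lowest Ezh2ΔSET value lay just under the highest control value. The means were 12.7 ± 4.27 kb and 21.5 ± 6.35 kb (SD, n = 3 each), a difference of 8.80 kb (exact permutation p = 0.2). Part of the length in Ezh2ΔSET replicate 2 came from an element 11.6 to 16.6 kb upstream that no other mouse had. Without that mouse the difference was 5.47 kb. With peaks of at least 10 kb alone it was 15.1 kb, and the groups then did not overlap (exact permutation p = 0.1), which held for 1 of 5 members and 2.01% of all genes.

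Kirrel had 18.2, 48.6 and 27.6 kb in control mice. Ezh2ΔSET mice had 33.0, 41.2 and 31.0 kb, inside the control range. The means were 31.5 ± 15.6 kb and 35.0 ± 5.42 kb (SD, n = 3 each), a difference of 3.55 kb (exact permutation p = 0.8). The highest value belonged to control replicate 2, whose K4me3 differed at markers of several cell types, and without it the difference was 12.1 kb and the groups did not overlap. Without control replicate 1 the difference was −3.09 kb, and without Ezh2ΔSET replicate 2 it was 0.470 kb. Within 3 kb of a start, Kirrel had 0, 6.20 and 4.16 kb in control and 4.26, 0 and 0 kb in Ezh2ΔSET mice. Near the start the mean was thus lower in Ezh2ΔSET mice, with a difference of −2.03 kb (exact permutation p = 0.7, adjusted p = 1).

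Colec12 has a second start site deep in the gene, so its window spans 206 kb against 103 to 104 kb for the other members. It had 7.73, 0 and 25.9 kb in control mice. Ezh2ΔSET mice had 30.9, 34.4 and 16.8 kb, and control replicate 3 lay between them. The means were 11.2 ± 13.3 kb and 27.4 ± 9.32 kb (SD, n = 3 each), a difference of 16.2 kb (exact permutation p = 0.2). With 1 mouse left out the difference ran from 10.6 kb, without control replicate 2, to 23.5 kb, without control replicate 3. Over the gene body, K27me3 covered 5.001, 0 and 10.7 kb in control and 19.3, 11.0 and 17.2 kb in Ezh2ΔSET mice. The gene body groups did not overlap, which held for 1 of 5 members and 1.45% of all genes, and the margin between the highest control and the lowest Ezh2ΔSET mouse was small.

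Maf had the lowest mean K27me3 length of the 5 genes in the wide window, with 0, 11.5 and 0 kb in control and 5.001, 6.27 and 6.26 kb in Ezh2ΔSET mice. The means were 3.84 ± 6.65 kb and 5.84 ± 0.729 kb (SD, n = 3 each), a difference of 2.00 kb (exact permutation p = 0.8). The control mean rested on replicate 2, without which both other mice were at 0 kb, the difference was 5.84 kb and the groups did not overlap. Without control replicate 1 or without control replicate 3 the difference was 0.0823 kb. Without control replicate 2, groups did not overlap at 2 of 5 members, Kirrel and Maf, against 10.6% of all genes. The count was also 2 without Ezh2ΔSET replicate 3 (5.20% of all genes) and without control replicate 3 (6.41%). Over the gene body, Maf had 0, 6.34 and 10.2 kb in control and 2.54, 5.001 and 8.54 kb in Ezh2ΔSET mice, with overlap between groups.

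Because the mouse with few chromosome X peaks also had more autosomal K27me3, each length was divided by the autosomal length that K27me3 covered in the same mouse, a scale chosen after seeing the data. On this scale (kb per 100 Mb of autosomal peak) Cd1d1 averaged 15.8 ± 6.70 in control and 15.3 ± 1.90 in Ezh2ΔSET mice (SD, n = 3 each), and Kirrel 19.7 ± 11.4 and 17.8 ± 0.717, so that the direction turned at both genes. Relative to the coverage of the whole genome, chromosome X included, both differences stayed above 0, at 0.216 for Cd1d1 and 0.109 for Kirrel in multiples of the genome-wide share covered. Per 100 Mb of autosomal peak, Cd1d2 averaged 7.79 ± 2.59 and 10.8 ± 2.07, Colec12 6.45 ± 7.53 and 13.8 ± 4.11, and Maf 2.58 ± 4.46 and 2.99 ± 0.382, each still higher in Ezh2ΔSET mice. On the autosomal scale the mean was thus higher in Ezh2ΔSET at 3 of 5 members, against 26.5% of autosomal genes with a peak. No member lay above control with no overlap on this scale, where 1.66% of autosomal genes did. Leaving out Ezh2ΔSET replicate 2 instead kept all 5 differences in kb above 0, the others being 3.67 kb at Cd1d1, 12.7 kb at Colec12 and 1.79 kb at Maf.

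**Figure D3:**
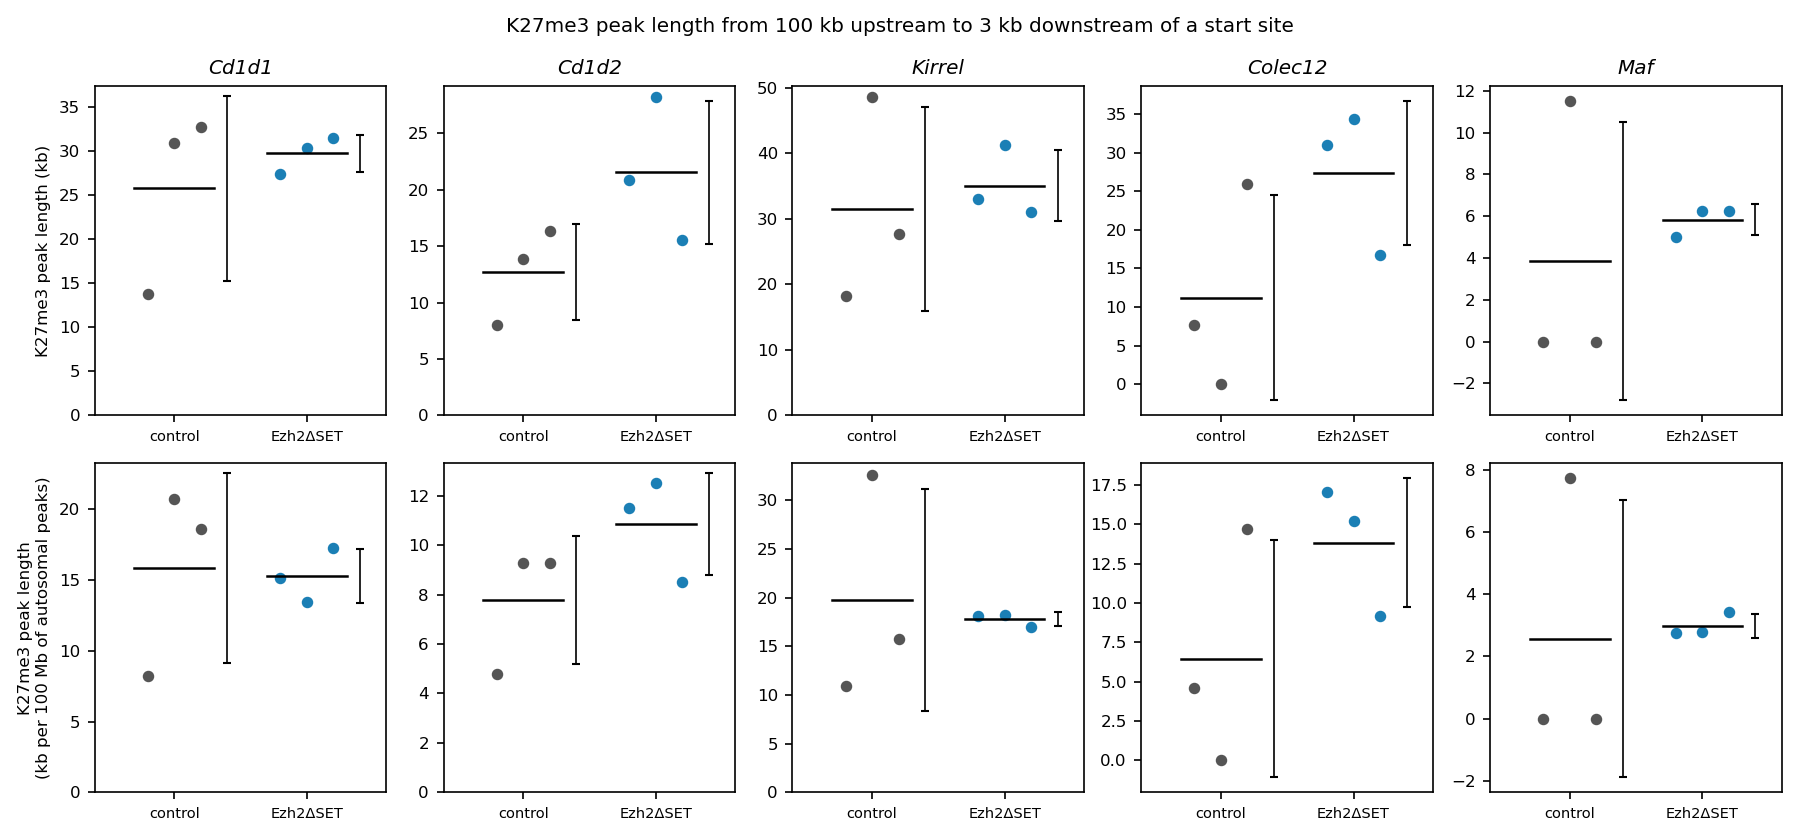
Length of K27me3 peaks in the wide window, 100 kb before to 3 kb past each start, for each mouse (points), in kb (upper) and in kb per 100 Mb of autosome covered by K27me3 peaks in that mouse (lower), with the mean (line) and SD (bar beside it, which can reach below 0) of 3 mice. The groups overlap at all 5 genes on both scales, and at Maf control replicate 2 stands at 11.5 kb above 2 mice at 0 kb.

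K4me3 showed which starts carried the active mark in each mouse. It was called within 3 kb of a start in all 3 mice at 3 of 5 genes in control (58.0% of all genes) and 4 in Ezh2ΔSET mice (60.8%). Cd1d1, Kirrel and Maf were called in 6 of 6 mice (57.4%), and Cd1d2 was the gene added in Ezh2ΔSET mice. Its peaks there were 0.501 to 0.627 kb wide, at or near the 501 bp minimum, and control replicate 1 had 0.754 kb. They lay partly inside the Cd1d2 body, so the copy that the reads came from is uncertain. With K4me3 peaks of at least 1 kb, or with an equal number of widest peaks per mouse, 2 members were called in all 3 Ezh2ΔSET mice (55.0% and 55.8% of all genes). Colec12 was called in 3 of 6 mice, missing in control replicate 2 and Ezh2ΔSET replicates 1 and 2. The mean length was higher in Ezh2ΔSET at 2 of 5 members (Cd1d1 and Cd1d2), against 67.1% of genes with a peak, or 2 of 5 against 54.0% without control replicate 2.

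Maf had the widest K4me3 of the 5 genes, with 3.37, 3.64 and 2.70 kb within 3 kb of a start in control and 2.46, 2.28 and 2.15 kb in Ezh2ΔSET mice. These groups did not overlap, and Ezh2ΔSET was narrower by a difference of −0.943 kb (means 2.29 ± 0.155 and 3.24 ± 0.485 kb, SD, n = 3 each, exact permutation p = 0.1, adjusted p = 0.887 over all genes with a peak). Ezh2ΔSET lay below control with no overlap at 1 of 5 members and 1.40% of all genes, and 7.43% of all genes had no overlap in either direction. Control replicate 2, whose K4me3 differed at markers of several cell types, held the highest Maf value, and the part of that difference was not tested. Without it the Maf difference was −0.741 kb. With the outermost start alone it was −0.478 kb (exact permutation p = 0.4) and with peaks merged over gaps of up to 3 kb −1.54 kb (exact permutation p = 0.2), and in both cases the groups overlapped at all 5 members (6.53% and 7.41% of all genes had no overlap). Within 1 kb of a start the difference was −0.0543 kb (exact permutation p = 1), against 5.78% of all genes with no overlap in that window. Over the gene body, K4me3 covered 2.27, 4.68 and 2.67 kb in control and 1.32, 1.35 and 1.07 kb in Ezh2ΔSET mice, which did not overlap (difference −1.96 kb, exact permutation p = 0.1, 1 of 5 members against 8.53% of all genes). The count of members with K4me3 groups that did not overlap changed to 2 when control replicate 1 was left out (13.5% of all genes) and to 4 when control replicate 2 was (14.6%).

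Kirrel had 1.92, 0.501 and 1.14 kb of K4me3 in control and 0.771, 0.880 and 1.04 kb in Ezh2ΔSET mice, with a difference of −0.291 kb (exact permutation p = 0.7). The Ezh2ΔSET values lay inside the control range. The Kirrel difference was 0.0748 kb without control replicate 1, and −0.634 kb with no overlap without control replicate 2. Cd1d1 was the most even, with means of 1.59 ± 0.304 and 1.63 ± 0.108 kb (SD, n = 3 each, exact permutation p = 0.8), and its difference ran from −0.0715 to 0.212 kb with 1 mouse left out. Colec12 had 1.02, 0 and 1.36 kb in control and 0, 0 and 0.968 kb in Ezh2ΔSET mice (difference −0.469 kb, exact permutation p = 0.4), and the difference ran from −0.864 kb, without control replicate 2, to −0.186 kb, without control replicate 3. Cd1d2 had 0.754, 0 and 0 kb in control and 0.627, 0.501 and 0.501 kb in Ezh2ΔSET mice (difference 0.292 kb, exact permutation p = 0.4). It was 0.166 kb without control replicate 2 or 3 and 0.543 kb without control replicate 1. With all mice the groups overlapped at these 4 genes, and adjusted p ran from 0.978 to 1.

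**Figure D4:**
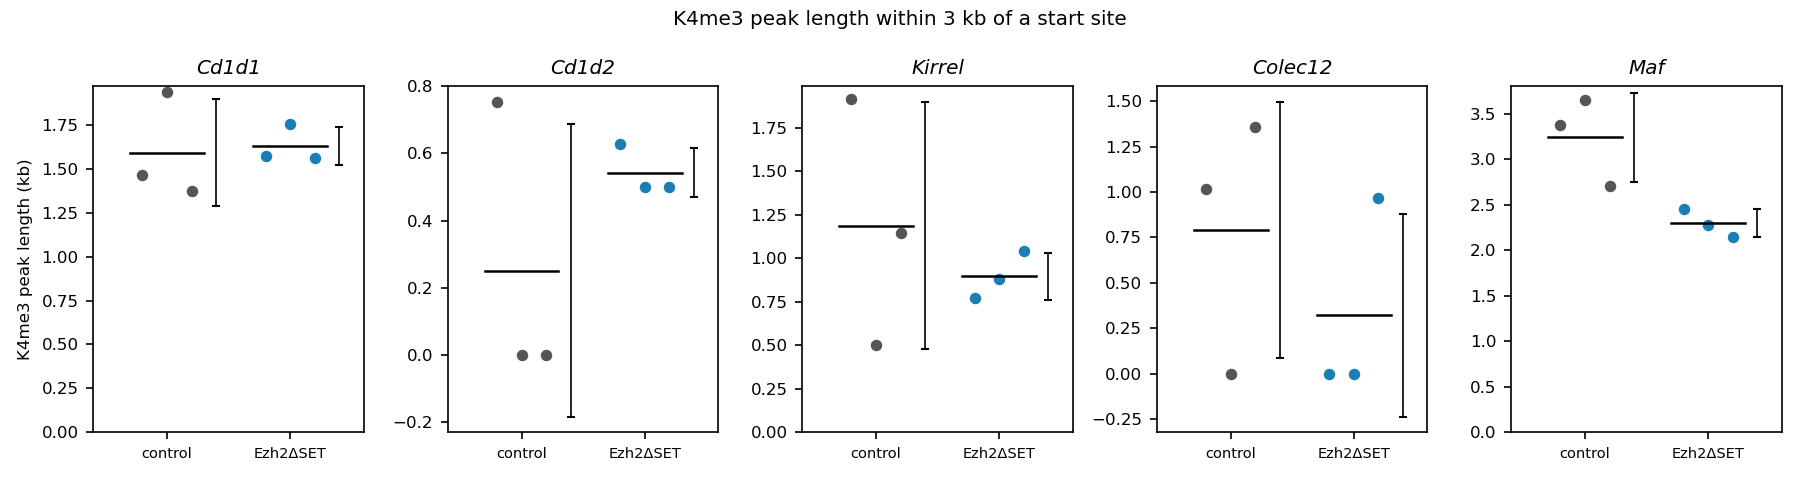
Length of K4me3 peaks within 3 kb of a start for each mouse (points) in kb, with the mean (line) and SD (bar beside it, which can reach below 0) of 3 mice. Cd1d1 stays between 1.37 and 1.94 kb in all 6 mice, and Maf in Ezh2ΔSET mice lies below the 3 control mice.

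The marks met on the same bases at Kirrel, Colec12 and Maf but not at the CD1d genes. Within 10 kb of a start, shared bases were found in 3 of 6 mice at Kirrel, 3 at Colec12, 1 at Maf and 0 at Cd1d1 and Cd1d2. At Kirrel, K27me3 covered the whole K4me3 peak in control replicates 2 and 3 and Ezh2ΔSET replicate 1, and in the other 3 mice the K27me3 domain stopped 4745 to 7398 bp short of it. At Colec12, K4me3 lay fully inside K27me3 in control replicate 3 and Ezh2ΔSET replicate 3, and 54.4% of it did in control replicate 1. The other 3 mice had no K4me3 at the Colec12 start. At Maf, gaps of 1151, 1330 and 635 bp separated the marks in Ezh2ΔSET mice, and 3726 bp were shared in control replicate 2, the mouse with the most shared peaks genome-wide. Both marks lay within 3 kb of a start in all 3 Ezh2ΔSET mice at Maf alone (1 of 5 genes, 1.64% of all genes) and in all 3 control mice at none of the 5 (1.22%).

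Genes of the same pathways were taken from lists fixed with earlier results known, and are given as counts. Of 11 genes listed for lipid antigen presentation, 9 carried K4me3 at a start in all 6 mice (57.4% of all genes did). The rest, Ctss and Cd74, carried it in control replicate 2 alone. None of the 11 had K27me3 within 3 kb of a start in any mouse, which held for 66.7% of all genes. In the wide window only Npc2, a lysosomal sterol transfer protein, had K27me3 in all 3 control mice (1 of 11, against 20.0% of all genes), and it was absent there from Ezh2ΔSET replicate 2. Of 7 genes of the Kirrel family and slit diaphragm, 6 carried K4me3 in 6 mice (57.4% of all genes) and none was called for K27me3 in the wide window in all 6 mice (15.5%). Control replicate 2 alone had K27me3 within 3 kb of a start at 4 of the 7 genes, with 12.8 kb at Kirrel2, which encodes another Kirrel protein, 7.95 kb at Nphs1, the nephrin gene, 11.9 kb at Tjp1 and 6.001 kb at Podxl. Over all genes, 11.6% had K27me3 near a start in that mouse alone. At Kirrel2 the K4me3 length was 5.06, 2.25 and 4.94 kb in control and 5.28, 5.25 and 5.14 kb in Ezh2ΔSET mice, which did not overlap. Cd2ap, an adaptor protein of the slit diaphragm, did not overlap either, with 3.31, 2.78 and 3.365 kb in control and 3.374, 3.379 and 3.83 kb in Ezh2ΔSET mice. At both genes control replicate 2 was the lowest, and 7.43% of all genes had K4me3 groups that did not overlap.

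Of 12 collectins and scavenger receptors, 10 had no K4me3 in any mouse, against 34.1% of all genes, and 1 had it in 6 of 6 mice. Mbl2, Sftpd and Marco, 3 of the 12, had K27me3 in the wide window in 6 of 6 mice, against 15.5% of all genes. Sftpd, a lung surfactant collectin, had 8.73, 8.03 and 23.0 kb in control and 38.6, 42.5 and 18.9 kb in Ezh2ΔSET mice, which overlapped. Marco, a macrophage scavenger receptor, had 12.6, 34.0 and 27.6 kb in control and 36.2, 23.0 and 35.8 kb in Ezh2ΔSET mice, which overlapped too. Of 9 genes of the MAF family and its partners, which pair as leucine zipper factors, 8 carried K4me3 in 6 mice (57.4% of all genes) and none was called for K27me3 in the wide window in all 6 mice (15.5%). At Nfe2l2, the stress response factor NRF2, K4me3 covered 5.50, 4.65 and 5.11 kb in control and 4.59, 4.53 and 4.43 kb in Ezh2ΔSET mice, which did not overlap, as at 7.43% of all genes in either direction.

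Next to the members, Dclk2, a kinase gene beyond Cd1d2, had 8.02, 13.9 and 21.1 kb of K27me3 in its wide window in control and 30.9, 39.2 and 22.3 kb in Ezh2ΔSET mice. These groups did not overlap (3.65% of all genes, in either direction), and part of this K27me3 is the domain that Cd1d2 also has in its window. Within 3 kb of a Dclk2 start, K27me3 was present in 5 of 6 mice. Fcrls, upstream of Kirrel, had K27me3 within 3 kb of a start in 3 mice and K4me3 in 0. Thoc1 beyond Colec12 had K27me3 near a start in 1 mouse and K4me3 in 6 of 6.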

How the data were processed

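Pancreatic chromatin was profiled for K27me3 and K4me3, and the 12 deposited lists of 6 mice (3 control and 3 Ezh2ΔSET) were used. The series' other 6 mice are not reported here. The authors aligned reads to mm10 with bowtie2, checked them with FastQC and used findPeaks of HOMER (histone mode, local background, matched input) for each mouse. Versions are not given in the sources used here. The deposited BED lists hold positions, and their score column is constant, so that the deposited score carries no height. The 12 input samples were not analysed here. K27me3 peaks were at least 5001 bp wide and K4me3 peaks at least 501 bp.

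Peaks were joined to GENCODE vM21 start sites with pandas 2.3.3 and numpy 2.4.6 under Python 3.11.15, tests ran in scipy 1.17.1 and plots in matplotlib 3.10.9. A gene was called with 1 bp of peak in its window, which for K27me3 reached 100 kb before and 3 kb past each start and for K4me3 at most 3 kb to either side. Covered length in the window was compared over mice by exact two-sided permutation tests with Benjamini-Hochberg adjustment over all genes with a peak. Groups did not overlap where every mouse of one lay above every mouse of the other. The code was tested on simulated peaks. Animals are labelled as separate samples, and p-values measure the spread between them only.

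The members and lists were chosen with earlier results of these data known. The named genes were the 5 members and neighbours within 100 kb. Npc2, Ctss, Cd74, Kirrel2, Nphs1, Tjp1, Podxl, Cd2ap, Mbl2, Sftpd, Marco and Nfe2l2 were named after their values were seen. No fold, read count or depth could be derived.

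Replicate numbers are shared between genotypes in the labels, with nothing that ties them to a litter or day. Correlations of deviations between same-numbered mice ran from −0.215 to 0.228 over 6 pairs, and the pairs were not all above 0.1 for either mark. Alternatives were other windows, start sets, peak widths, scalings and mice. Scaling to autosomal coverage was chosen after seeing the data.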

Additional observations from a re-analysis of the deposited data

How the results depend on the processing

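Of the counts over the 5 genes, 40 of 53 values under other planned settings stayed within 1.5 times the first value, and 19 of 24 with 1 mouse left out. Genes called for K27me3 in all 3 control and all 3 Ezh2ΔSET mice numbered 3 and 5. With peaks of at least 10 kb they numbered 0 and 2 (6.40% and 9.24% of all genes), within 3 kb of a start 0 and 2 (5.78% and 7.39%), and over the gene body 0 and 2 (7.30% and 9.16%). With 1 mouse left out these ran from 3 to 4 (21.3% to 26.2% of all genes) and 5 to 5 (26.6% to 30.5%). K27me3 groups that did not overlap numbered 0 of 5 genes, 1 with peaks of at least 10 kb (2.01% of all genes), 1 over the gene body (1.45%), and 0 to 2 with 1 mouse left out.

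Genes called for K4me3 numbered 3 and 4. In Ezh2ΔSET mice they were 2 with peaks of at least 1 kb (55.0% of all genes) and 2 with equal numbers of widest peaks (55.8%). With 1 mouse left out they ran from 3 to 4 (58.3% to 61.5%) and 4 to 4 (61.2% to 61.4%). K4me3 groups that did not overlap numbered 1 (Maf), 0 with the outermost start (6.53% of all genes), 0 with merged peaks (7.41%), 0 within 1 kb (5.78%), and 1 to 4 with 1 mouse left out. The causes of these changes were not tested.

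With replicate number as a block, the smallest exact p possible was 0.25, against 0.1 without it, so that no gene could pass 0.05 in either test and the replicate block says nothing about stability. The K27me3 differences, 3.97 kb at Cd1d1 among them, had replicate block exact permutation p from 0.5 to 1, and the Maf K4me3 difference of −0.943 kb had 0.25. Depth could not be read from the lists, so a missing peak may lie just under the caller's threshold in any mouse, and widths carry no weight for height.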
